A study of Caenorhabditis elegans with 2 samples.

Results

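The chaperone and heat shock genes of Caenorhabditis elegans were taken as the protein-coding genes whose symbol begins with hsp, dnj, cct or pfd followed by a number. The Ensembl annotation of the assembly WBcel235 holds 65 such genes among 19973 protein-coding genes on the nuclear chromosomes, under 63 distinct symbols, because hsp-16.1 and hsp-16.48 each name 2 genes. They were sorted by symbol into 7 inducible heat shock genes (hsp-16.1, hsp-16.2, hsp-16.41, hsp-16.48 and hsp-70), 7 other small heat shock genes, and 51 genes called constitutive here. The constitutive genes comprised 8 of the HSP70, HSP90 and HSP60 families, 29 of the HSP40 family, 8 of the CCT chaperonin and 6 of prefoldin. Constitutive is a class name: hsp-3, hsp-4, hsp-6 and hsp-60 are also known to be raised by stress in the endoplasmic reticulum or the mitochondria. Whether other genes of the class respond to heat was not assessed, so the class is not a set of genes without induction.

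The binding data came from chromatin immunoprecipitation followed by sequencing (ChIP-seq) of CEH-2, a homeodomain protein of the EMX family. Worms of the transgenic strain OP323, which carry CEH-2 with a C-terminal GFP-FLAG tag, were hermaphrodites collected as late embryos 5 hours after synchronization by egg bleaching, and their sonicated chromatin was precipitated with an antibody against GFP. The labels name 1 group of 2 biological replicates, both from whole organisms, with no mention of heat shock or of any treatment, so cells that express the fusion and cells that do not cannot be told apart. The labels give neither the promoter that drives the fusion nor its copy number, and a control immunoprecipitation or strain was not analysed here.

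The authors' lists held 18411 nuclear peaks for replicate 1, 15161 for replicate 2 and 16022 for both replicates pooled, all called at a relaxed threshold. The set they derived by irreproducible discovery rate, named the reproducible set below, held 1430 nuclear peaks. Each peak carries a signal, which is the value given by the authors' peak caller in units the sources do not define, and a summit, the position of its highest point. The pooled signal ran from 29.0 upward in the relaxed list and from 86.3 upward in the reproducible set, where its median was 125.5. Signals were compared only within a list. The lists hold no read counts, so the depth is unknown. A gene was counted as having a promoter summit where a summit lay between 1000 bp upstream and 200 bp downstream of any of its transcript starts.

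Chaperones bind unfolded or newly made proteins and help them to fold, to cross membranes or to be degraded. Proteins of the HSP70 family work in cycles driven by ATP, in which HSP40 proteins deliver substrates and start hydrolysis and nucleotide exchange factors reset the cycle. Prefoldin passes actin and tubulin to the CCT ring, which folds them. The small HSP-16 proteins and inducible HSP70 proteins are nearly silent in unstressed worms and are switched on by heat shock factor, which binds heat shock elements, arrays of GAA and TTC units in alternating orientation.

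The sequence at the summits is shown first, because heat shock elements separate the inducible genes from most of the constitutive ones. The windows below hold 50 bp to either side of the strongest reproducible summit of 5 genes in whose window a pair of heat shock units was found. They are on the plus strand of ce11, which is the same assembly as WBcel235, and come from the RefSeq genome sequence. Capitals mark GAANNTTC or TTCNNGAA, the spacing of adjoining units, and in 2 windows also GGCCAC or GAGAGA, read on either strand. The windows are chrV:14685716-14685816 for hsp-90, chrIII:7198989-7199089 for pfd-5, chrIV:17278536-17278636 for hsp-1, chrIII:8447107-8447207 for hsp-110 and chrII:11545424-11545524 for dnj-13.
hsp-90: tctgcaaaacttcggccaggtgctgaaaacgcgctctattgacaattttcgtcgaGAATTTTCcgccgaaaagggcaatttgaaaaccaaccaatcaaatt
pfd-5: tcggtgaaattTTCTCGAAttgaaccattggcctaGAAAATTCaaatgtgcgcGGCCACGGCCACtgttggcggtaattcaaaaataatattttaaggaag
hsp-1: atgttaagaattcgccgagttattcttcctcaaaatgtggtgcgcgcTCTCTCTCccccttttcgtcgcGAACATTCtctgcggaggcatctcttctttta
hsp-110: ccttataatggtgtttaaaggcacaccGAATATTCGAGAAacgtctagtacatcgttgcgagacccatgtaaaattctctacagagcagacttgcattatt
dnj-13: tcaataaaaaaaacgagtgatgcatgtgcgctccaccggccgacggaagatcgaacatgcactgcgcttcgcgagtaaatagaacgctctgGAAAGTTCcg

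In the hsp-110 window 3 units adjoin in alternating orientation, beginning 23 bp before the summit on the plus strand. In the other windows pairs of units stand alone, beginning 39 and 15 bp before the summit at pfd-5 and 5, 19 and 41 bp beyond it at hsp-90, hsp-1 and dnj-13. A further 3 genes had GGCCAC in the summit window, here in capitals as it reads on the plus strand, with hsp-60 below them as a strong summit that held none of the motifs searched. The windows are chrV:1871916-1872016 for cct-7, chrX:6092140-6092240 for hsp-3, chrII:8927375-8927475 for cct-2 and chrIII:1619064-1619164 for hsp-60.
cct-7: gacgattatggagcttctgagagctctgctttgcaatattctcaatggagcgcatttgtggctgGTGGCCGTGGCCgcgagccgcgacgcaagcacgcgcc
hsp-3: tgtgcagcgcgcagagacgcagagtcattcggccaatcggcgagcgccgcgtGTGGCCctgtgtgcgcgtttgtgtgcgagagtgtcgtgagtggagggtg
cct-2: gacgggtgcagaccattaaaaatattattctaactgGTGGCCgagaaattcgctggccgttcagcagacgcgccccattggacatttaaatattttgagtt
hsp-60: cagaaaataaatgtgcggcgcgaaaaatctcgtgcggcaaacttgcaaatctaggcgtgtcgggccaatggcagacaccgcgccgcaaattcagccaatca

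For the inducible genes, the whole stretch between the starts of hsp-16.2 and hsp-16.41, chrV:1804958-1805177, is shown on the plus strand, with the heat shock units in capitals. Below it is the region around the relaxed summit between F44E5.4 and F44E5.5, a pair of inducible HSP70 genes that the symbols do not capture, at chrII:11759388-11759588.
hsp-16.2 and hsp-16.41: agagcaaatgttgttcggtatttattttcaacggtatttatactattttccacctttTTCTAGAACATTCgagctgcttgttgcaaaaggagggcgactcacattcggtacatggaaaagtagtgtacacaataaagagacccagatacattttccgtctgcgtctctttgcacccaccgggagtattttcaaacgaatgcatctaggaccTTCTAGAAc
F44E5.4 and F44E5.5: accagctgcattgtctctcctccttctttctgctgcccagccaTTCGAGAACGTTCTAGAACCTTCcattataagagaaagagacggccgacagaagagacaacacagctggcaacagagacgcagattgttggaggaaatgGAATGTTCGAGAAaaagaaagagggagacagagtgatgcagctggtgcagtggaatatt

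Reproducible CEH-2-GFP summits were found at the promoters of constitutive chaperone genes more often than at those of all genes. A reproducible promoter summit was present at 18 of the 65 genes, or 27.7%, against 5.97% of all protein-coding genes. All 18 belonged to the 51 constitutive genes, a share of 35.3%. The 7 inducible genes and the 7 other small heat shock genes had 0 each. For classes of 7 genes, 4 of the inducible ones in identical copies, 0 is near the 5.97% of all genes, so it shows no difference of these classes from other genes. No test of the difference between the classes was made, since there is 1 group and its genes are not replicates. Where a summit was given only to the gene with the nearest start, the count fell to 10 of 65, against 4.3% of all genes.

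Each replicate taken alone gave a like count. Among the 1430 strongest nuclear peaks of replicate 1, promoter summits were found at 18 of the 65 genes, against 5.78% of all genes. Among as many of replicate 2 they were found at 17, against 5.94%. Neither replicate had a gene of the inducible or other small heat shock class, as set by symbol, in that range, and 16 of the 18 genes of the reproducible set were in it in both. The exceptions were hsp-3, which was absent from the strongest peaks of replicate 1, and dnj-9, which was absent from those of replicate 2.

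The relaxed lists reached further down in signal and took in more genes of every class except the HSP70, HSP90 and HSP60 families, which stayed at 6 of 8. A pooled relaxed summit was present at 40 of the 65 genes, or 61.5%, against 29.4% of all genes. By class these were 36 of 51 constitutive genes, 2 of 7 inducible genes and 2 of 7 other small heat shock genes, so these small classes lay near the share of all genes. In the relaxed list of replicate 1, 44 of the 65 genes had a promoter summit, against 30.8% of all genes. In that of replicate 2, 37 had one, against 28.2%. The inducible genes with a summit were the same pair, hsp-16.2 and hsp-16.41, in all 3 relaxed lists.

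**Figure D1:**
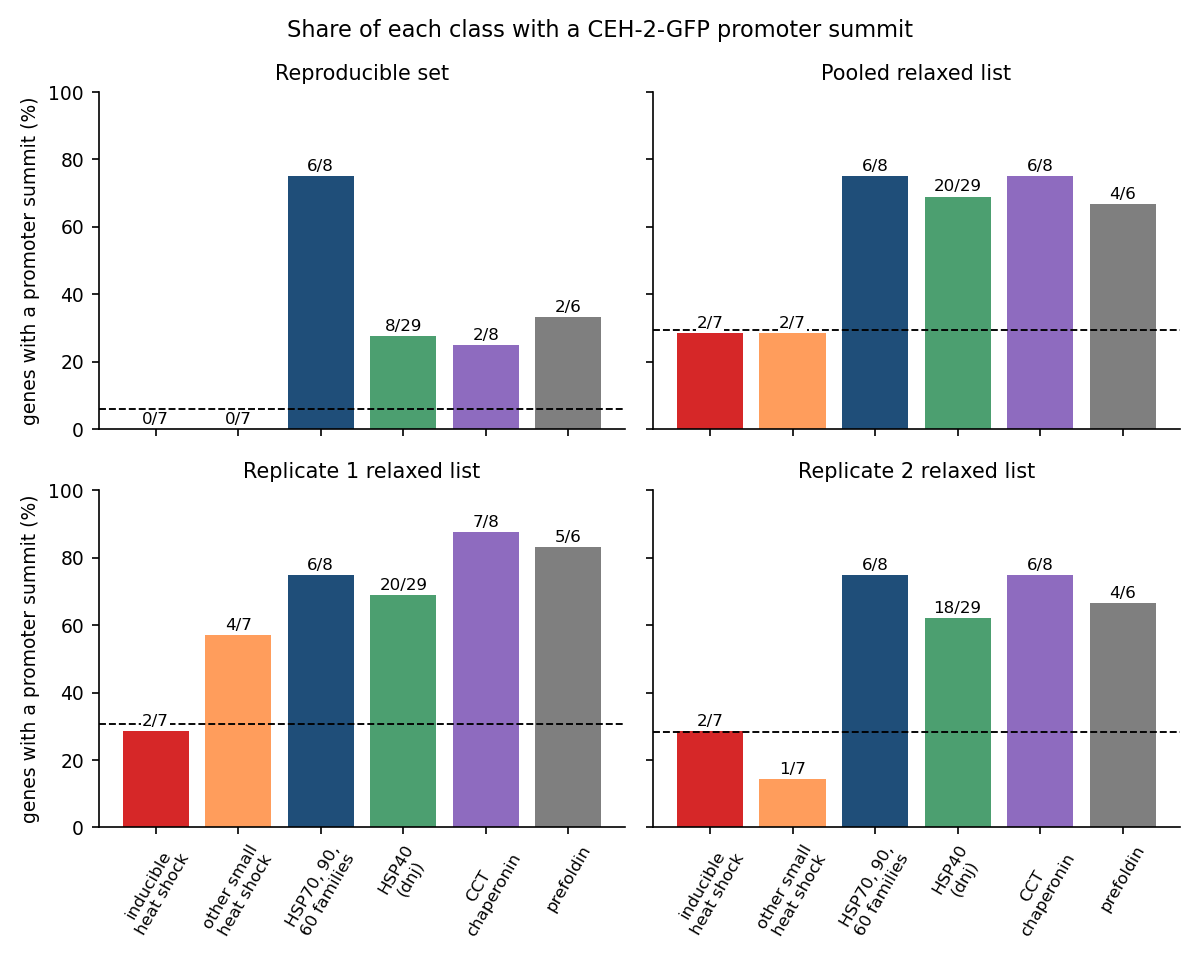
Share of the genes of each class with a promoter summit, in percent, in the reproducible set and in the relaxed lists of the pooled reads and of each replicate. Numbers over the bars are genes with a summit of genes in the class, and dashed lines mark the share over all 19973 protein-coding genes. The inducible class stood at 0 of 7 in the reproducible set and at 2 of 7 in each relaxed list, while the HSP70, HSP90 and HSP60 families stood at 6 of 8 in every list.

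In the HSP70, HSP90 and HSP60 families, 6 of 8 genes had a reproducible summit, the largest share of any class. This share depends on the assignment of shared summits. Where a summit was given only to the gene with the nearest start, hsp-90, hsp-60, hsp-110 and hsp-6 were among the 8 genes that lost theirs. hsp-90, the cytosolic HSP90, had a signal of 193 in replicate 1, 177 in replicate 2 and 369 in the pooled list. That was the highest pooled value of the 65 genes and rank 45 among the nuclear peaks. The summit lay in an intron of hsp-90, 394 bp upstream of an internal start but 848 bp downstream of the outermost one, so it counts only where internal starts are used. It was also 281 bp upstream of C47E8.4 on the other strand.

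hsp-60, the mitochondrial chaperonin, had 120.3 in replicate 1, 114 in replicate 2 and 234 pooled, with the summit 628 bp upstream of its start and 185 bp upstream of Y22D7AL.10, the nearest gene. hsp-1, the main cytosolic HSP70, had 98.8 and 70.03 in the replicates and 169.5 pooled, 373 bp upstream and in the window of no other gene. Among the families' genes with a summit, hsp-1 and hsp-3 were the ones whose summit no other gene shared. hsp-110, a nucleotide exchange factor for HSP70, had 73.0 and 58.9 in the replicates and 134.8 pooled, 248 bp upstream, and its summit also lay 196 bp upstream of the proteasome subunit gene rpn-3.

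hsp-3 encodes a form of BiP, the HSP70 of the endoplasmic reticulum. Its signal was 43.2 in replicate 1, 79.3 in replicate 2 and 124.3 pooled, at 66 bp upstream of the start, the nearest of all 18. hsp-6, the mitochondrial HSP70, had 50.4 and 52.9 in the replicates and 105.8 pooled, at 440 bp upstream of its own start and 160 bp upstream of C37H5.5. The other BiP gene, hsp-4, had no promoter summit in any list, and its nearest relaxed summit was 5973 bp from its start. hsp-75, the mitochondrial HSP90, also had none, with the nearest relaxed summit 6728 bp away. The 2 BiP genes thus stood on opposite sides of detection, and so did the 2 HSP90 genes of cytosol and mitochondria.

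**Figure D2:**
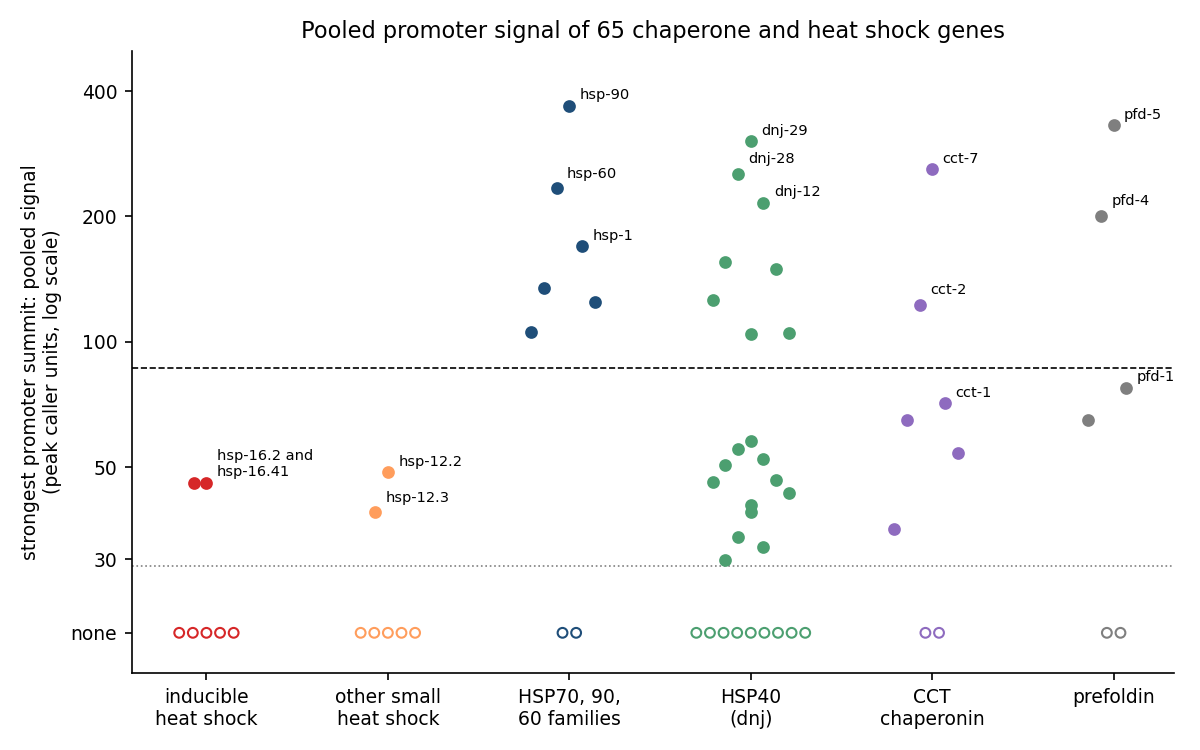
Pooled signal of the strongest promoter summit of each gene (log scale, in the caller's units) by class, with open circles in the row marked none for genes with no pooled summit. The dashed line is the lowest nuclear signal of the reproducible set, 86.3, and the dotted line that of the pooled relaxed list, 29.0. The inducible and other small heat shock genes lie below the dashed line or have no summit, and the highest points are hsp-90, pfd-5 and dnj-29.

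Of the HSP40 genes, 8 of 29 had a reproducible summit. The strongest was at dnj-29, the SEC63 homolog that works with BiP at the translocon, with 158 in replicate 1, 139.5 in replicate 2 and 304 pooled, 163 bp upstream. It had a second reproducible summit of 141.0 in the same gap, and both were shared with ndua-2 and fld-1 on the other strand. dnj-28 had 126 and 125 in the replicates and 253 pooled, 113 bp upstream and shared with supr-1. dnj-12, a DNAJA-type partner of cytosolic HSP70, had 117 and 95.3 in the replicates and 216 pooled at 425 bp upstream, and a second summit of 98.0 at 92 bp. The first of these lay 67 bp upstream of mtx-1, which codes for a metaxin of the mitochondrial outer membrane. These 3 genes, like dnj-14, dnj-5 and dnj-13 below, were above the median of the reproducible set in pooled signal.

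The other 5 HSP40 genes had pooled signals from 104.6 to 155.6. dnj-14, the cysteine string protein of synaptic vesicles, had 71.9 in replicate 1, 84.7 in replicate 2 and 155.6 pooled, 291 bp upstream and shared with glit-1. dnj-5 had 63.5 and 89.7 in the replicates and 149 pooled, at 696 bp upstream, the farthest of the 18. dnj-13, the DNAJB1 homolog, had 49.7 and 82.8 in the replicates and 126 pooled, in an intron of dhgd-1 and 227 bp upstream of its own start. All 3 were among the 1430 strongest peaks of both replicates.

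dnj-9 had 54.2 in replicate 1, 44.6 in replicate 2 and 105 pooled, 215 bp upstream and unshared. dnj-19, of the DNAJA type, had 49.5 and 60.7 in the replicates and 104.6 pooled, and its summit 416 bp upstream fell in the 5′ UTR of nhr-47, a nuclear hormone receptor gene whose start was 20 bp away. These were the weakest of the 18. The remaining 21 HSP40 genes divided into 12 with a relaxed pooled summit, led by dnj-1 at 57.8 pooled, 35.5 in replicate 1 and 20.1 in replicate 2, and 9 with none.

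The CCT ring and prefoldin act one after the other on the same clients, yet within each complex the subunit genes did not have summits together. cct-7 had 124 in replicate 1, 139 in replicate 2 and 260 pooled, 280 bp upstream and shared with T10B5.4. cct-2 had 58.9 and 66.1 in the replicates and 122.8 pooled, 316 bp upstream. The other 6 of 8 CCT genes had no reproducible summit. The strongest of them, cct-1, had 36.9 and 36.3 in the replicates and 71.3 pooled, and cct-8 had 28.7 and 34.7 in the replicates and 64.9 pooled. Relaxed summits were also found at cct-6 and cct-5, and none at cct-3 and cct-4 in the pooled list.

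Prefoldin showed the same unevenness. pfd-5 had 131 in replicate 1, 199 in replicate 2 and 332 pooled, 155 bp upstream, the second highest pooled value of the 65 genes. pfd-4 had 106.7 and 94.5 in the replicates and 201.0 pooled, 136 bp upstream. Its summit was nearer to 2 other genes, 73 bp upstream of B0035.3 and 82 bp upstream of B0035.22. pfd-1, at 45.03 and 31.9 in the replicates and 77.6 pooled, and pfd-3, at 42.1 and 24.9 in the replicates and 64.7 pooled, lay below the reproducible set. pfd-2 and pfd-6 had no pooled promoter summit. pfd-5 and pfd-4 thus exceeded the other 4 subunit genes by a wide margin in each list.

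Of the inducible genes, 2 had a relaxed summit. hsp-16.2 and hsp-16.41 are transcribed away from each other and shared 1 relaxed summit at position 1805110 of chromosome V, with 25.6 in replicate 1, 27.0 in replicate 2 and 45.9 in the pooled list, rank 5342. The replicates' summits were 26 bp apart. These values were close to the medians of all genes with a relaxed promoter summit, which were 23.9 in replicate 1, 26.6 in replicate 2 and 46.5 pooled.

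The other 5 inducible genes had no promoter summit in any list. hsp-70, an inducible HSP70, had its nearest relaxed summit 2204 bp from its start, with a signal of 30.7. The 2 genes named hsp-16.1 (WBGene00002015 and WBGene00002017) and the 2 named hsp-16.48 (WBGene00002019 and WBGene00002020) had theirs 1482 to 3777 bp away, with a signal of 29.0. These 4 genes form 2 inverted copies of 1325 bp on chromosome V, at chrV:9087293-9088617 and chrV:9089280-9090604, that are identical at 1325 of 1325 positions. A sequencing read from one copy cannot be told from a read of the other, and how the authors treated reads with several positions is not given in the sources used here. Without these 4 genes, a setting added after seeing the data, the inducible class had 0 of 3 reproducible and 2 of 3 relaxed summits.

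F44E5.4 and F44E5.5, the inducible HSP70 pair shown above, lay at the edge of the reproducible set. Their shared summit, 177 bp upstream of F44E5.4 and 174 bp upstream of F44E5.5, had 26.5 in replicate 1, 59.4 in replicate 2 and 84.7 in the pooled list, against the lowest reproducible signal of 86.3. It ranked 4638 among the 18411 peaks of replicate 1 and 884 among the 15161 of replicate 2, so it was among the 1430 strongest peaks in replicate 2 alone. The genes are 99.0% identical over an alignment of 2210 columns, which bears on read placement as for hsp-16.1. Counting this pair as inducible, again after seeing the data, gave 0 of 9 reproducible and 4 of 9 relaxed summits.

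Among the 7 other small heat shock genes, 2 had a pooled relaxed summit. hsp-12.2 had 26.6 in replicate 1, 22.5 in replicate 2 and 48.6 pooled, 105 bp upstream. hsp-12.3 had 22.3 in replicate 1, no summit in replicate 2 and 39.0 pooled, 103 bp upstream. sip-1, a small heat shock gene of the embryo with another kind of symbol, had no summit in replicate 1, 25.9 in replicate 2 and 36.3 pooled. With hsp-25 and hsp-43, which had a summit in replicate 1 alone, the class had a relaxed summit at 4 of 7 genes in replicate 1 and at 1 of 7 in replicate 2, on either side of the shares of all genes, 30.8% and 28.2%.

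The inducible genes carried heat shock elements at their starts without a reproducible summit. The search covered 300 bp, from 250 bp before to 50 bp after the outermost start, whereas summits were counted at any start. In these 300 bp, 3 alternating GAA and TTC units were found at 7 of 7 inducible and 4 of 51 constitutive genes. The share over all protein-coding genes was 1.97%. Pairs of units, GAANNTTC or TTCNNGAA, were found at 7 of 7 inducible and 24 of 51 constitutive genes, against 32.5% of all genes. The inducible promoters are not independent, since the copies and the gene pairs share sequence. The 4 constitutive genes with 3 alternating units were hsp-90, hsp-1, hsp-110 and dnj-12, and all 4 had a reproducible summit at some start. At hsp-90 the summit lay 848 bp downstream of the outermost start, so hsp-90 had no promoter summit at the start searched for elements. Between hsp-16.2 and hsp-16.41, 3 adjoining units began 95 bp before the relaxed summit and a further pair began 59 bp beyond it. No pair lay within 50 bp of the summit. The 300 bp at the start of each gene held 2 arrays of 3 units. The further pair is therefore part of a second array, which runs past the stretch shown above. Between F44E5.4 and F44E5.5 arrays began 57 bp before and 42 bp beyond the summit.

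**Figure D3:**
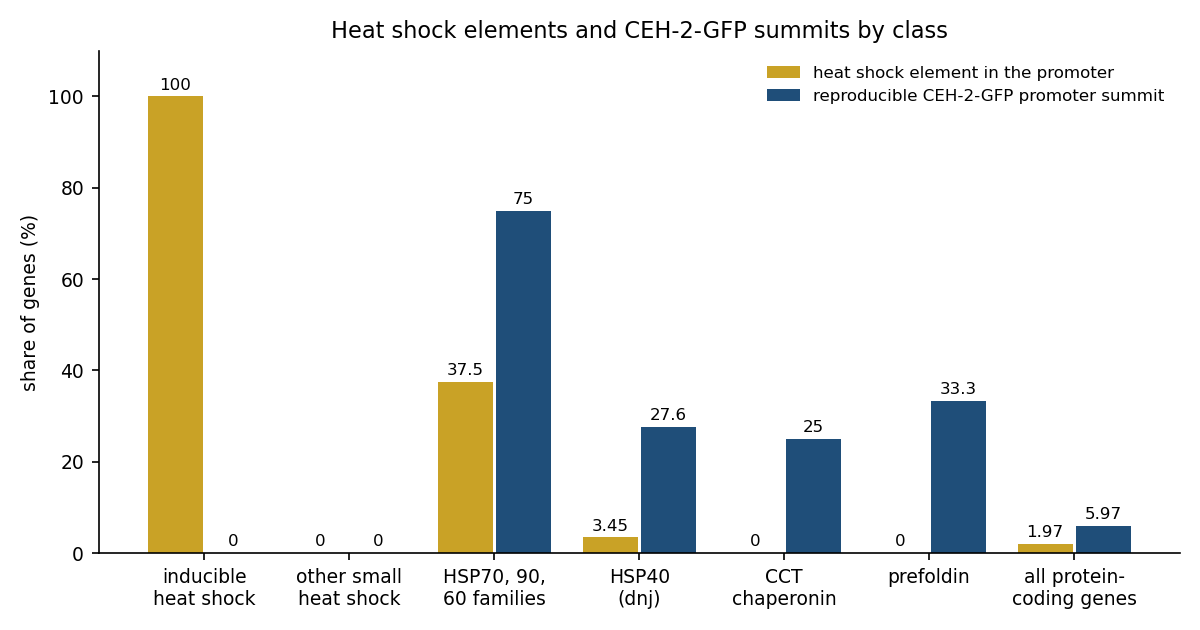
Share of genes, in percent, by class and over all protein-coding genes. Gold bars give genes with 3 alternating heat shock units in the 300 bp around the outermost start. Blue bars give genes with a reproducible CEH-2-GFP promoter summit at any start. The inducible class stands at 100 and 0, the HSP70, HSP90 and HSP60 families at 37.5 and 75, and all protein-coding genes at 1.97 and 5.97. For the 7 inducible genes, 0 is near the 5.97 of all genes.

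At the summits themselves, the 20 distinct reproducible summits of these genes held a pair of heat shock units in 5 windows of 101 bp, or 25%, against 7.92% of the 896 reproducible promoter summits of all genes and 7.5% of the windows 300 bp to either side. An array of 3 units was present in 1, the hsp-110 window, against 0.446%. TAATTA or TAATGA, cores of the kind that homeodomain proteins bind, occurred in 0 of 20 windows against 4.24%. GAGAGA was found in 2, or 10%, against 21.1%, and GGCCAC in 4, or 20%, against 17.5%. All were searched on both strands, pairs of units can overlap arrays of 3, and a match is a description of the letters only. The median GC content was 48.0% in these windows, 49.5% over all reproducible promoter summits and 37.1% in the windows to either side of the 20.

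The 18 strongest summits all lay upstream of the start used, from 66 to 696 bp. Between 100 and 450 bp lay 15 of them, or 83.3% against 57.7% for all genes with a reproducible summit. That range was chosen after the positions were seen, so the higher share shows no position particular to these genes. The median distance was 285.5 bp, against 253 bp. By annotation 15 were intergenic, 2 lay in introns and 1 in a 5′ UTR. None was within 300 bp of a tRNA, snoRNA or snRNA gene.

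Most of these summits could be counted for another gene as well. Of the 18, 14 lay in the window of another protein-coding gene, or 77.8% against 55.5% for all genes with a reproducible summit. In 12 cases the other genes were on the opposite strand only. The chaperone gene had the nearest start in 9 of 18, or 50%, against 71.1%. hsp-1, hsp-3, dnj-5 and dnj-9 were the 4 genes whose summit lay in no other window.

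Many of these genes start head to head with a neighbour, meaning that a protein-coding gene on the other strand has its outermost start within 1000 bp upstream. Of the 18 genes with a reproducible summit, 11 were head to head, or 61.1%, against 45% of all genes with such a summit and 17.7% of all genes. Among head-to-head genes, 11 of 30 chaperone and heat shock genes had a summit, against 15.1% of all, and among the others 7 of 35, against 3.99%. Within either arrangement the share was above that of all genes, and whether the arrangement bears on the share was not tested. Of the inducible genes 6 of 7 were head to head.

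**Figure D4:**
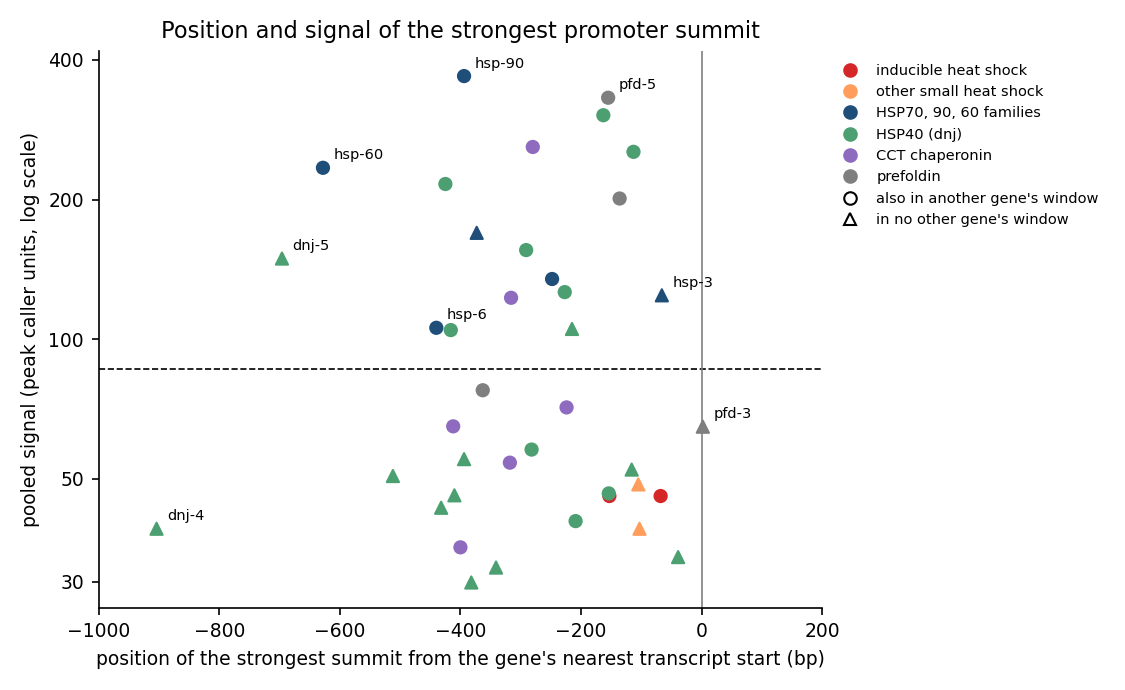
Position of the strongest pooled promoter summit from the gene's nearest transcript start (bp, negative upstream) against its pooled signal (log scale, in the caller's units), for the 40 genes with one. Circles are summits that also lie in another gene's window, triangles those in no other, colours mark the classes, and the dashed line is the lowest signal of the reproducible set, 86.3. Of the 18 points above the line, 15 lie between 100 and 450 bp upstream, with hsp-60 and dnj-5 farther out and hsp-3 closer in.

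The reproducible set was itself drawn by agreement of the replicates, so high values of its genes in both are no separate check of that agreement. All 18 genes of the reproducible set had a summit in both relaxed lists, as did 17 of the 22 genes with a relaxed summit only. Of the 25 genes without a pooled summit, 7 had one in 1 replicate and 18 in none. The median signal of the 18 genes of the reproducible set was 85.9 in replicate 1, 87.2 in replicate 2 and 162.6 in the pooled list, where that over all genes with a reproducible promoter summit was 138. The genes just below the reproducible set were pfd-1, cct-1, cct-8, pfd-3 and dnj-1, from 77.6 down to 57.8.

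**Figure D5:**
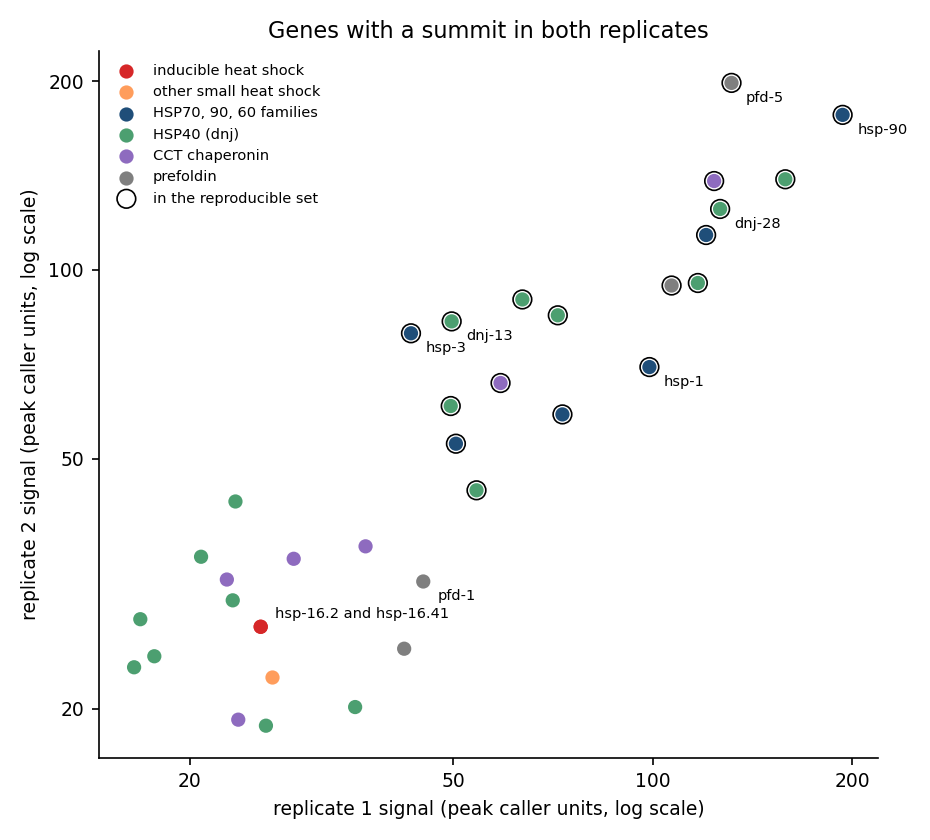
Signal of the strongest promoter summit in replicate 1 against replicate 2 (log scales, in the caller's units, each list called on its own) for the 35 genes with a summit in both, coloured by class, with circles around the genes of the reproducible set. The circled genes, whose set was drawn by agreement of the replicates, occupy the upper right. The inducible pair hsp-16.2 and hsp-16.41, which share a point at 25.6 and 27.0, lies in the lower left.

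Of 32 further genes of the pathway, which regulate or assist these chaperones or, as F44E5.4, F44E5.5 and sip-1, are heat shock genes with other symbols, 6 had a reproducible promoter summit, or 18.8%, against the 5.97% of all genes, 21 had a relaxed one only and 5 had none. bag-1, a nucleotide exchange factor for HSP70, had 137 in replicate 1, 185 in replicate 2 and 328 pooled. The AAA ATPase genes cdc-48.1 and cdc-48.2, whose products extract ubiquitinated proteins, had 180.6 and 209.7 in the pooled list, the latter with a summit 977 bp upstream. In the endoplasmic reticulum the stress sensor gene atf-6 had 174 pooled, the calreticulin gene crt-1 had 128.6 and the GRP94 gene enpl-1 had 128. Other genes of that compartment and its stress response had relaxed summits only, with pooled signals of 81.5 at cnx-1, 79.6 at xbp-1, 54.4 at pek-1 and 48.3 at ire-1. hsf-1, the heat shock factor itself, had 21.1 in replicate 1, no summit in replicate 2 and 36.6 pooled.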

How the data were processed

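ChIP-seq peak lists of 2 replicates were used. Per the file headers, the authors called relaxed peaks on each replicate and on pooled alignments, each against a control, and took the optimal set from these lists by irreproducible discovery rate. The deposited signal value is that of the authors' caller. The deposited −log10 q-value ran only from 2.31 to 2.88 in the reproducible set and was not used to rank peaks. The sources used here do not give the aligner, the caller or the threshold.

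Summits on ce11 were placed in promoter windows of Ensembl release 115 (WBcel235), and every peak and gene lay within the RefSeq chromosome lengths. The 23 mitochondrial peaks of the optimal set were left out. Counts and medians are descriptions, with no test. Intervals were not computed. The assignment was tested on simulated data: 800 of 800 planted summits inside the window were recovered, and 0 of 400 outside were assigned. Sequences were cut and searched with Python 3.11.15, numpy 2.4.6, pandas 2.3.3 and Biopython 1.88, and figures drawn with matplotlib 3.10.9.

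The genes, classes, motifs and lists were chosen with earlier results of these data known. Named genes are the inducible genes, those with a reproducible summit, up to 4 per class by pooled signal, the 5 strongest below the reproducible set, and among the further genes of the pathway those with a reproducible summit, hsf-1, sip-1, F44E5.4 and F44E5.5. Other genes were named after their values were seen. Alternatives were other windows, starts and assignments, a stricter set, single replicates and other class limits.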

Additional observations from a re-analysis of the deposited data

How the results depend on the processing

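Counts of genes stayed within 1.5 times of the reported ones in most settings. The inducible genes had 0 summits in the reproducible set, or in the peaks standing in for it, in every setting that kept their class limits. Given only to the nearest start, reproducible summits fell to 10 of 65 genes, all 10 constitutive, and relaxed ones at inducible genes to 1. With hsp-3, hsp-4, hsp-6, hsp-60 and the other small heat shock genes counted as inducible, 3 of 18 inducible genes had a reproducible summit and 7 of 18 a relaxed one. With F44E5.4 and F44E5.5 added after seeing the data, 4 had a relaxed one. The median signal of 162.6 moved to 169.5 with 2000 bp upstream or with whole peak intervals, 155.6 with outermost starts, 137.7 with the nearest start and 216.0 in the stronger part of the set, as genes entered or left. With 1 replicate left out, reproducible summits numbered 17 to 18 overall and at constitutive genes, 0 to 0 at inducible genes and 6 to 9 at the further genes of the pathway. Relaxed ones then numbered 37 to 44, 34 to 38 at constitutive and 2 to 2 at inducible genes, and the median was 85.9 to 89.7 on the replicates' own scale. No paired analysis was possible because there is 1 group. The lists give no read counts, so what depth limits is unknown.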

Other observations

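Summits inside the chaperone genes but outside their promoter windows were below the reproducible set. The reproducible summit in an intron of hsp-90 is not among them, since it lies in the promoter window of an internal start. Inside the gene but outside its promoter windows, relaxed pooled summits were present in 19 of 65 genes, or 29.2%, against 22.7% of all protein-coding genes, and all 19 were constitutive. None was reproducible, and 239 of all 19973 genes, or 1.2%, had a reproducible one there, so 0 of 65 is near the share of all genes. The strongest were in a coding exon of hsp-3, at 77.6, and in an intron of dnj-24, at 77.4. hsp-1 had one of 61.9 and hsp-90 one of 60.9 in coding exons, and cct-5 had 4 along its body, of 29.1 to 60.8. The inducible and other small heat shock genes had 0 of 7 each. For classes of 7 genes this shows no difference from the 22.7% of all genes, and gene length was not taken into account.

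The largest gaps around a chaperone gene were at cct-3, whose nearest reproducible summit was 217666 bp away, and at dnj-26, at 138660 bp. Distances for the inducible genes ran from 50503 bp at hsp-70 to 87635 bp at hsp-16.1 (WBGene00002015). These genes were named after their values were seen. No such distance was computed over all genes, so the values show no difference of the inducible genes from other genes.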
